A study of Mus musculus with 4 samples.

Results

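The genes described here encode the proteins that carry out and steer pre-mRNA splicing: the SR proteins, the heterogeneous nuclear ribonucleoproteins (hnRNPs), the proteins of the small nuclear ribonucleoproteins (snRNPs) and the SF3a and SF3b subunits. Members were all genes whose name on the array begins with Srsf, Hnrnp, Snrp, Sf3a or Sf3b, and no name carrying the pseudogene suffix was found. This gave 52 of the 37074 named features on the array, read by 120 of its 56605 probes, and they divide into 11 SR genes, 20 hnRNP genes, 12 Snrp genes and 9 SF3 genes. The rule used names and no measured value.

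RNA was measured on 4 single-colour Agilent arrays, 1 for naive T cells and 1 for iTreg cells at 3 h of each genotype, WT and Nr4a-TKO, and the comparisons asked how these transcripts differ between the stages and between the genotypes. Nr4a-TKO cells carry floxed alleles of Nr4a1 and Nr4a2 and a null allele of Nr4a3, which encode nuclear receptors of the Nr4a family, and the driver of the recombination is not given in the sources used here. The study's methods describe mice of the C57BL/6J background with a Foxp3 reporter, and irradiated Rag2-deficient hosts of T cell-depleted marrow, so the cells developed in chimeras and the host could make no T cells of its own. Hosts of WT marrow alone gave the WT cells, whereas the Nr4a-TKO cells came from hosts that received both marrows together, so the kind of chimera and the genotype cannot be told apart. The methods describe age-matched young adult mice of both sexes and cells sorted some weeks after transplantation, and the labels give no age for the arrays. Naive cells were sorted from spleen and lymph nodes as CD4+, CD25low, CD44low, CD62L-high and Foxp3-. The iTreg arrays are of such cells after 3 h on plate-bound anti-CD3 (2 µg/ml) with anti-CD28 (0.5 µg/ml), IL-2 (10 ng/ml), TGF-β1 (either 0.2 ng/ml or 0.5 ng/ml, which of them is not said) and blocking antibodies to IFN-γ and IL-4. That stage therefore differs from naive T in culture, receptor stimulation and cytokines together.

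Levels are log2 of the scanner's processed intensity relative to the 75th percentile of the same array, and a change is the level of iTreg at 3 h minus that of naive T. A level belongs to 1 probe and was not compared between genes. No group had a replicate, so values are given with no test, and "rose" or "fell" is written only of a change of more than 2-fold, that is beyond 1 on the log2 scale. Probes printed on several spots had a spread that makes an SD of 0.17 to 0.18 for a difference between 2 arrays from the signals before the scanner software's detrending, and of 0.061 to 0.068 after it. That is the error of the spots, without any variation between mice, and the number of arrays limits the precision.

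Between 65.0% and 67.7% of the probes were well above background on an array, and no spot was saturated. Compared with WT, the arrays labelled Nr4a-TKO were higher for the Nr4a1 probe by 1.29 in naive T and 0.50 at 3 h, and for the Nr4a2 probes by 0.85 and 0.20 in naive T and by 1.38 and 1.41 at 3 h. The Nr4a3 probes differed by -1.97, -1.55 and 0.22 at 3 h, so the signals of Nr4a1 and Nr4a2 do not show the loss that the labels state, and whether these probes lie in the deleted parts was not tested. Foxp3, the factor that defines Treg cells, differed by -1.34 in naive T and -1.47 at 3 h on the Nr4a-TKO arrays, which were the lower ones. Ikzf2, the other Treg gene examined, differed by -1.47 in naive T but by 0.16 at 3 h. Of the naive CD4 T cell genes, 8 of 8 with a probe were well above background, and 8 of 9 activation genes rose in both genotypes, Cd69 by 3.47 and 3.92. B cell markers were well above background for 7 of 7 and were higher on the Nr4a-TKO array for 6 of them in naive T and for 7 at 3 h. Their summed level relative to the 75th percentile was 13.1 in WT and 20.2 in Nr4a-TKO naive T, and 10.8 and 22.4 at 3 h. Of the other markers, 2 of 2 CD8 T, 2 of 4 myeloid, 2 of 3 erythroid and 0 of 2 NK genes were well above background on the 4 arrays. The summed myeloid level was 477 in WT and 492 in Nr4a-TKO naive T, and 392 and 408 at 3 h. Cd14, a myeloid gene, differed by -3.19 in naive T (Nr4a-TKO minus WT). The part of these other cells in the results below was not tested, and fewer cells of a type cannot be told apart from less RNA per cell.

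Splicing removes introns in 2 steps on the spliceosome. Each of the main snRNPs is an RNA wrapped by a ring of Sm proteins (Snrpb, Snrpd1, Snrpd2, Snrpd3, Snrpe, Snrpf and Snrpg) with proteins of its own: Snrpa and Snrpc belong to U1, which recognises the 5′ splice site, and Snrpa1 and Snrpb2 to U2, which pairs with the branch point. SF3a and SF3b are parts of U2 that hold it on the branch point. SR proteins bind mostly exonic sequences and recruit the splicing machinery, hnRNPs coat nascent RNA and often repress exons, and in T cells both are known to act on alternative exons such as those of Ptprc, which encodes CD45.

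The probes of 2 genes are shown first because the finding for Srsf5 turns on where its probes lie, and because Snrpa1 had the highest mean change. The letters are the 60 bases of each probe, 5′ to 3′ as deposited, with coordinates on mm9.
Srsf5, probe across an intron (chr12:82047706-82048355): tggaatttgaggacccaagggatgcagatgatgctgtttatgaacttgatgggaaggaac
Srsf5, probe inside that interval (chr12:82047730-82047789): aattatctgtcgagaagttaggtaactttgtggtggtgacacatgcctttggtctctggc
Srsf5, probe further 3′ (chr12:82050878-82050937): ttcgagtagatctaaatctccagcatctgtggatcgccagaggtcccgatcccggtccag
Snrpa1, probe across an intron (chr7:73214088-73214357): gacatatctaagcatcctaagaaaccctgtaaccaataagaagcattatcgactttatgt
The first Srsf5 probe is 60 bases long and spans 650 bases of the genome, so it bridges bases that its transcript lacks. The other probe of that interval lies within it and shares no run longer than 5 bases with the bridging probe. It was designed on the transcript ENSMUST00000151036, and the remaining Srsf5 probes on NM_001079695.

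From naive T to iTreg at 3 h, splicing factor transcripts went up together in both genotypes and no member fell. In WT, 17 of 52 members rose more than 2-fold, where 9.92% of all features did, and 0 fell, where 11.1% did. In Nr4a-TKO, 20 of 51 members rose, against 9.28%, and 0 fell, against 9.9%. The median change of the members was 0.82 in WT and 0.84 in Nr4a-TKO, whereas over all features it was -0.10 and -0.05. Of the 51 members with a change in both genotypes, 45 were above 0 in both, 4 were below 0 in both and 2 had opposite signs, and over all features 33.5% were above 0 in both and 43.7% below. The counts are smaller under RMA-like processing, which is what the study's methods name. It gave 10 members higher in WT and 11 in Nr4a-TKO, median changes of 0.67 and 0.69, and 0 lower. Of all features under it, 2185 of 26633 were higher in WT and 2051 of 27201 in Nr4a-TKO, and 2186 and 2064 were lower. Of the 16 members that rose in both genotypes, 7 were also past 2-fold in both by those steps: Snrpa1, Snrpd1, Snrpa, Snrpd2, Sf3b4, Srsf9 and Hnrnpab.

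The members are bright, with 48 of them above the 75th percentile as a mean over the 4 arrays. Among all features that bright, 13.2% rose in WT and 12.9% in Nr4a-TKO, and all 17 and 20 members that rose were among them. In both genotypes at once 16 members rose, against 6.67% of features, and 0 fell, against 6.21%. The 51 members well above background on the 4 arrays were set beside 2 SDs of the spots before detrending (0.34 in WT and 0.35 in Nr4a-TKO). Of them, 39 changed upward by more than that in both genotypes and 3 downward. Over all features the quartiles of the change were -0.51 and 0.38 in WT and -0.47 and 0.38 in Nr4a-TKO, all beyond that spread. The share of all features beyond it in both genotypes was not counted.

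**Figure D1:**
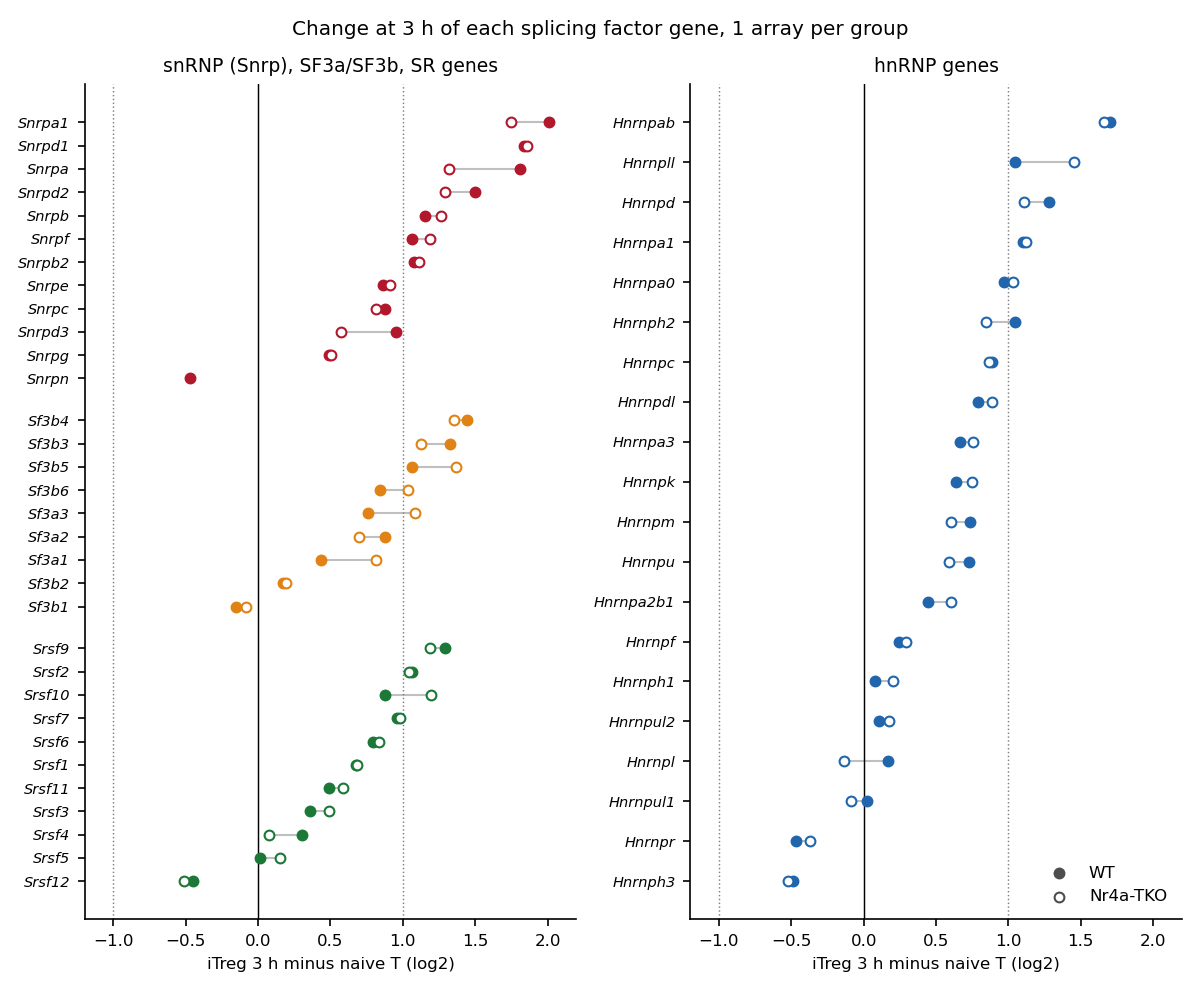
Change of each member between naive T and 3 h of iTreg culture (horizontal axis, log2), with WT as filled and Nr4a-TKO as open points, grouped by class and ordered by the mean of both changes, with dotted lines at 2-fold. There is 1 array per group and no error bar; 16 members lie beyond the right dotted line in both genotypes and none beyond the left one, and Snrpn has no Nr4a-TKO value.

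The Snrp genes had the highest median of the 4 classes. Other snRNP proteins carry other names and are in the list of tri-snRNP and other snRNP proteins below. Over its 24 genes the median mean change was 0.72, and 6 rose in both genotypes. Snrnp70, in that list, was at 0.53 in WT and 0.23 in Nr4a-TKO. Of the 11 Snrp genes with both changes, 7 rose in both genotypes and all 11 were above 0 in both, with a median mean change of 1.12. Among the Snrp genes particular to U1 or U2, Snrpa1, the U2 A′ protein, read 0.27 in WT and 0.42 in Nr4a-TKO naive T. At 3 h it read 2.29 in WT iTreg and 2.17 in Nr4a-TKO iTreg. Its changes were thus 2.01 and 1.75. The bridging probe printed above gave a mean change of 2.29 and another probe, on a different transcript, 0.99, so its 3 probes well above background on the 4 arrays were all higher at 3 h.

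Snrpa, which binds a loop of the U1 RNA, read -0.24 in WT and 0.17 in Nr4a-TKO naive T, and 1.57 and 1.49 at 3 h. It rose by 1.81 and 1.32. Snrpb2, the U2 B″ protein, went from 2.70 and 2.78 to 3.78 and 3.89, changes of 1.08 and 1.11. Snrpc, which helps U1 hold the 5′ splice site, stayed under 2-fold with 0.88 in WT and 0.81 in Nr4a-TKO.

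Of the 7 Sm ring genes with both changes, 4 rose in both genotypes. Snrpd1 read 1.28 in WT and 1.31 in Nr4a-TKO naive T, and 3.12 and 3.17 at 3 h, which gives changes of 1.84 and 1.86. Snrpd2, its partner in the ring, went from 4.77 and 4.86 to 6.27 and 6.15, changes of 1.5 and 1.29. Snrpb changed from 1.62 and 1.57 to 2.78 and 2.84, and its changes were 1.15 and 1.26.

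Each of these 3 genes had almost the same value in WT and in Nr4a-TKO at a given stage. Snrpf completed those that rose, from 4.14 and 4.13 to 5.20 and 5.31, with changes of 1.06 and 1.19. The remaining ring members were higher at 3 h by less than 2-fold: Snrpe by 0.87 and 0.91, Snrpd3 by 0.95 and 0.57, and Snrpg by 0.49 and 0.51. Snrpg is printed on 10 spots per array and read 7.58 and 7.61 in naive T and 8.07 and 8.12 at 3 h, with an SD over its spots of 0.022 to 0.043. The second probe of Snrpd3 gave changes of 1.16 and 1.91, past 2-fold where the first was not.

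Snrpn, an Sm protein paralogue of Snrpb that is best known from neurons and from imprinting, was the member these cells hardly showed. Of its 3 probes, 2 were not well above background on any array, and the brightest, printed on 10 spots, was well above background only in WT naive T. Its values of -3.36 in WT and -3.76 in Nr4a-TKO naive T, and of -4.13 and -3.73 at 3 h, lie around the arrays' limits of -3.63 to -3.97. By the mean over its spots it was at least 1.39-fold lower at 3 h in WT, and it has no value for Nr4a-TKO. The SD over those spots was 0.46 in WT naive T and 0.58 in WT iTreg, beside a bound of -0.47.

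Of the 9 SF3 genes, 3 rose in both genotypes, and these are all SF3b subunits. Sf3b4, which contacts RNA upstream of the branch point, read -0.08 in WT and 0.03 in Nr4a-TKO naive T, and 1.36 and 1.39 at 3 h, with changes of 1.44 and 1.36. Sf3b3, a scaffold subunit, went from 2.01 and 2.12 to 3.34 and 3.25, changes of 1.33 and 1.13. Sf3b5, a small subunit, changed from 0.78 and 0.56 to 1.84 and 1.93, that is by 1.06 and 1.37. Its other probe was well above background on 2 arrays only and gave a bound of -1.03 in WT and 0.06 in Nr4a-TKO, and with the mean over both probes neither genotype was past 2-fold (0.02 and 0.72).

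In contrast to these, Sf3b1, the large subunit that clamps the branch point adenosine, was not past 2-fold by any of its 4 probes. The brightest read 2.18 in WT and 2.20 in Nr4a-TKO naive T and 2.03 and 2.12 at 3 h, changes of -0.15 and -0.08. A dimmer probe was at -0.48 in WT and 0.29 in Nr4a-TKO, and the remaining ones at -0.12 and 0.17 and at -0.27 and -0.01. Sf3b2, which bridges SF3b and SF3a, was at 0.17 and 0.19 by its brightest probe and at 0.55 and 0.32 by the other, so both subunits stayed under 2-fold by every probe while 3 others rose by their brightest. Sf3b6, which binds at the branch point, rose in Nr4a-TKO (1.03) and was at 0.84 in WT, while its dimmer probe was at 0.17 in WT and 0.76 in Nr4a-TKO. Among the SF3a subunits, Sf3a3 was at 0.76 in WT and rose in Nr4a-TKO (1.08) by its brightest probe, but another read 0.34 and 0.31 and the mean over probes was 0.55 in Nr4a-TKO. Sf3a2 was at 0.88 and 0.70, and Sf3a1 at 0.44 and 0.81.

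SR genes ranged widely. Of 11, 2 rose in both genotypes and 10 were above 0 in both, with a median mean change of 0.68. Srsf9 read 1.04 in WT and 1.06 in Nr4a-TKO naive T and 2.34 and 2.25 at 3 h, changes of 1.29 and 1.19, and its dimmer probe changed by 0.61 and 1.1. Srsf2, long known as SC35 and a marker of nuclear speckles, went from 6.35 and 6.26 to 7.41 and 7.30, and so by 1.06 and 1.04. Its second probe, on another transcript, gave a mean change of 0.50. Srsf10, a splicing repressor once dephosphorylated, was at 0.87 in WT and rose by 1.19 in Nr4a-TKO.

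Just below 2-fold were Srsf7 at 0.96 and 0.98, Srsf6 at 0.79 and 0.84, and Srsf1, the founding SR protein, at 0.67 and 0.68. Srsf11 was at 0.49 and 0.58 and Srsf3 at 0.36 and 0.49. The dimmer Srsf3 probe was at 0.75 in WT and past 2-fold in Nr4a-TKO, at 1.03. The lowest were Srsf4 with 0.30 and 0.07, Srsf5 with 0.01 and 0.15, and Srsf12, a dim gene whose levels of -1.76 and -1.19 in naive T and -2.21 and -1.71 at 3 h give -0.45 and -0.52.

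The Srsf5 probes did not move alike. The bridging probe read 7.01 in WT naive T, 6.89 in Nr4a-TKO naive T, 7.03 in WT iTreg and 7.04 in Nr4a-TKO iTreg at 3 h, and the probe further 3′ changed by -0.25 and -0.04. The probe inside the bridged interval read 4.38 and 4.41 in naive T and 3.02 and 2.93 at 3 h, so it fell by 1.37 in WT and, in Nr4a-TKO, by 1.48. It was the only 1 of the 111 member probes well above background on the 4 arrays that fell more than 2-fold in both genotypes, whereas 28 rose. The shares of all probes of the array that fell or rose in both were not counted. SR genes are known to make transcript forms with extra exons or retained introns. Which RNA this probe bound, and why its signal was lower, was not tested.

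**Figure D2:**
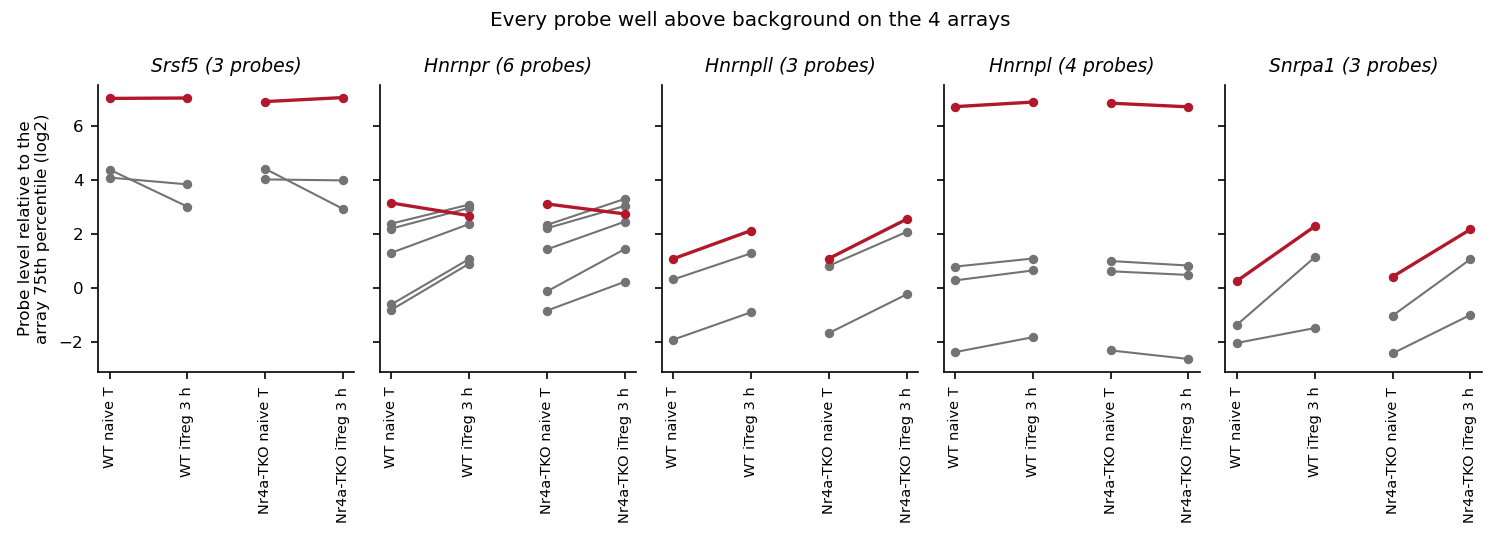
Level of each probe (vertical axis, log2 relative to the 75th percentile of the array) on the 4 arrays for Srsf5, Hnrnpr, Hnrnpll, Hnrnpl and Snrpa1, with lines joining naive T to iTreg at 3 h within a genotype; red marks the brightest probe, which stands for the gene, and grey the others well above background on all 4 arrays. In Srsf5, 1 grey probe falls in both genotypes while red is level, and in Hnrnpr red goes down while the 5 grey probes go up.

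Among 20 hnRNP genes, 4 rose in both genotypes and 16 were above 0 in both, with a median mean change of 0.68. Hnrnpab read 5.06 in WT and 5.02 in Nr4a-TKO naive T and 6.75 and 6.68 at 3 h, the highest changes of the class at 1.70 and 1.66. Hnrnpd, also called AUF1 and known for binding AU-rich elements of cytokine mRNAs, went from 3.47 and 3.57 to 4.76 and 4.68, changes of 1.28 and 1.11. Hnrnpa1, which blocks exons and is a classic counterpart of Srsf1, went from 3.71 and 3.79 to 4.81 and 4.92, changes of 1.1 and 1.12.

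These 3 genes were about the same in both genotypes. For Hnrnpa1 the other 2 probes gave mean changes between 0.43 and 1.19, so 1 of them stayed well under 2-fold. Hnrnpll, which silences the variable exons of Ptprc in activated T cells, read 1.09 in WT and 1.1 in Nr4a-TKO naive T but 2.13 and 2.55 at 3 h. Its changes were 1.04 and 1.45. Its 3 probes well above background had mean changes between 1.11 and 1.25.

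In 1 genotype only, Hnrnph2 rose in WT (1.05, against 0.84 in Nr4a-TKO) and Hnrnpa0 in Nr4a-TKO (1.03, against 0.97 in WT). These pairs lie close to the 2-fold line on either side. The Nr4a-TKO change minus the WT change was -0.20 for Hnrnph2 and 0.06 for Hnrnpa0, not larger than 2 SDs of the spots before detrending. Between 0.44 and 0.89 in both genotypes were Hnrnpc, the protein of the core hnRNP particle (0.89 and 0.87), Hnrnpdl (0.79 and 0.89), Hnrnpa3 (0.67 and 0.76), Hnrnpk (0.64 and 0.75), Hnrnpm (0.73 and 0.60), Hnrnpu (0.73 and 0.59) and Hnrnpa2b1 (0.44 and 0.60). Hnrnpf (0.24 and 0.29), Hnrnph1 (0.08 and 0.20), Hnrnpul2 (0.11 and 0.17), Hnrnpl (0.17 and -0.14) and Hnrnpul1 (0.02 and -0.09) were near 0.

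The lowest values of the class were those of Hnrnph3 and Hnrnpr. Hnrnph3 read 4.03 in WT and 4.26 in Nr4a-TKO naive T and 3.53 and 3.73 at 3 h, changes of -0.49 and -0.53. Its other probe was at -0.04 in both genotypes, so the low value rests on the brightest probe. Its paralogues Hnrnph1 and Hnrnph2, with Hnrnpf of the same G-tract binding family, were above 0. Hnrnpr was at -0.47 and -0.37 by its brightest probe. That probe lies 9346 bases from the nearest other Hnrnpr probe. Both were designed on ENSMUST00000148843, yet the nearest one rose, its WT change being 1.68 and its Nr4a-TKO change 1.56. Besides the brightest probe, 5 were well above background. All 5 were above 0 in both genotypes, and 3 of them rose more than 2-fold in both. The low value of Hnrnpr therefore holds for 1 probe and not for the gene.

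Probes of a gene gave similar changes in most cases. Over 37 members with at least 2 probes well above background on the 4 arrays, the mean changes of a gene's probes differed by a median of 0.35, by no more than 0.5 in 27 and by more than 1 in 4, which are Hnrnpr, Srsf5, Snrpa1 and Srsf10. In 31 of them all probes had a mean change of the same sign. The 86 probes designed on NM transcripts had median changes of 0.79 in WT and 0.83 in Nr4a-TKO, and the 25 designed on other transcripts 0.55 and 0.47.

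The changes were alike in WT and in Nr4a-TKO. These 2 changes share no array. The median over the members of the Nr4a-TKO change minus the WT change was 0.02, with an SD of 0.18 over 51 members. In 30 of them the Nr4a-TKO change was the higher one, as it was in 13597 of all 25524 features. As a description over these genes, which share the 4 arrays and are no replicates, Pearson's r was 0.95 and Spearman's rho 0.93. Over all 25524 features r was 0.76, and over the 22652 well above background on the 4 arrays, as these members are, it was 0.82. The farthest pairs were Snrpa, with 1.81 in WT against 1.32 in Nr4a-TKO, and Hnrnpll, with 1.04 against 1.45.

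**Figure D3:**
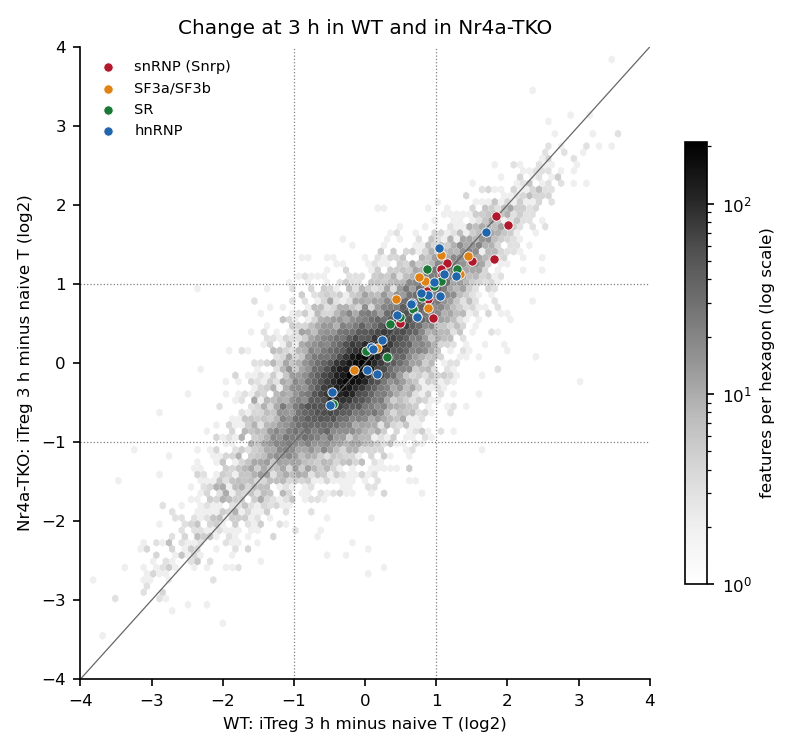
Change between naive T and 3 h of iTreg culture in WT (horizontal axis, log2) and in Nr4a-TKO (vertical axis, log2), with all 25524 features as grey hexagons shaded by their number on a log scale and the members as points coloured by class. Dotted lines mark 2-fold, the diagonal marks equal change, and 104 features lie outside the axes; the members follow the diagonal from Hnrnph3, at -0.49 and -0.53, to Snrpa1, at 2.01 and 1.75.

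Within a stage, the members differed little between the genotypes. By brightest probes, no member was more than 2-fold apart in naive T or at 3 h. Of all features, 5.32% were in naive T and 5.38% at 3 h. A dimmer Hnrnpm probe, well above background on the 4 arrays, differed by -1.36 at 3 h (Nr4a-TKO minus WT) and by 0.45 in naive T. Its change from naive T to 3 h was 1.75 in WT and -0.07 in Nr4a-TKO. The other Hnrnpm probes differed by -0.04 and -0.06 at 3 h. Among features above the 75th percentile, where nearly all members lie, only 0.544% were higher and 0.44% lower in Nr4a-TKO naive T, and 0.843% and 0.637% at 3 h, so a count of 0 is close to what such bright features give. The median absolute difference of the members was 0.092 in naive T and 0.089 at 3 h, against 0.20 and 0.20 over all features. The 51 members well above background on the 4 arrays were set against 2 SDs of the spots before detrending. Within that spread lay 48 in naive T and 47 at 3 h, and 26 and 30 were higher in Nr4a-TKO. Of all features, 12636 of 26472 were higher in Nr4a-TKO in naive T and 14198 of 26948 at 3 h. Over all features the genotype difference had quartiles of -0.21 and 0.18 in naive T and -0.18 and 0.22 at 3 h. The share of all features within 2 SDs was not counted.

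By brightest probes, Snrpe was the member farthest apart at both stages. It read 4.60 in WT and 5.33 in Nr4a-TKO naive T, and 5.47 and 6.24 at 3 h. Both Nr4a-TKO arrays were the higher ones, by 0.73 and 0.77. Again by brightest probes, it was the only member past 1.5-fold at either stage. Of all features, 14.5% were in naive T and 15.0% at 3 h. Its other probe differed by 0.32 and 0.12, in the same direction and by less. Srsf12 was higher in Nr4a-TKO by 0.57 and 0.51, although at levels below the 75th percentile.

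Hnrnpll was higher in Nr4a-TKO by all 3 of its probes well above background on the 4 arrays. At 3 h they differed by 0.42, 0.66 and 0.79, and in naive T by 0.01, 0.24 and 0.51, with the brightest probe first. Whether the difference itself changes with the stage was not tested. Hnrnpl, its paralogue, was higher in Nr4a-TKO naive T and lower in Nr4a-TKO iTreg at 3 h by all 4 of its probes, by 0.13 and -0.18 for the brightest. The stage and genotype comparisons of a gene share arrays, so these values are not independent of the changes above.

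**Figure D4:**
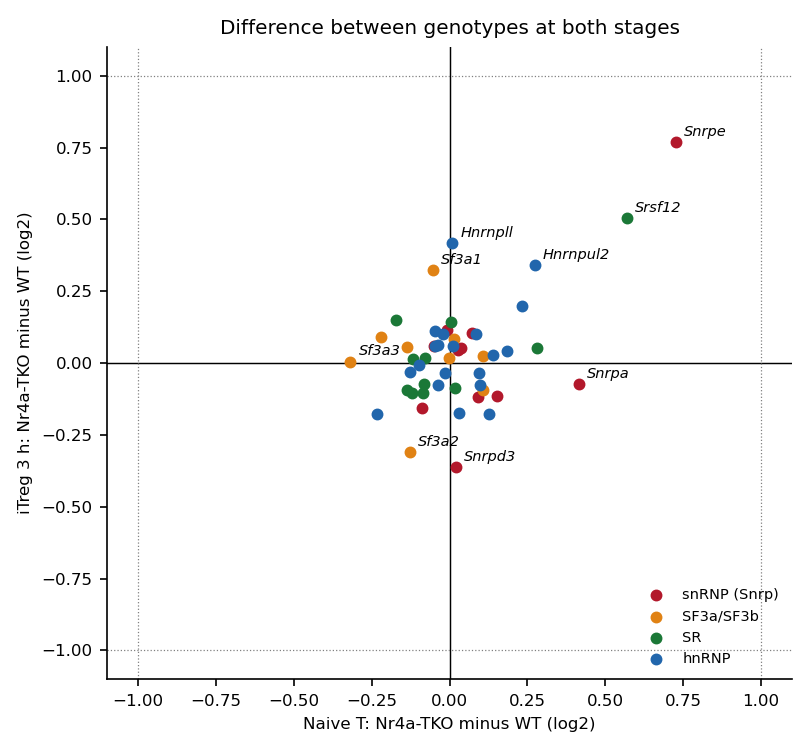
Nr4a-TKO minus WT in naive T (horizontal axis, log2) and in iTreg at 3 h (vertical axis, log2) for the 51 members with both values, coloured by class, with names for those beyond 0.3 at either stage and dotted lines at 2-fold. No member reaches a dotted line, and Snrpe lies at 0.73 and 0.77.

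The other genes of the splicing pathway were set beside the members in 8 lists by function, with 159 genes measured in both genotypes. Of these, 33 rose in both and 3 fell in both, with a median mean change of 0.50, against 6.67% and 6.21% of all features. The highest median, 1.01, was that of the SMN complex and Sm assembly, the machinery that loads Sm rings on snRNAs, where 8 of 16 rose: Wdr77 (2.11 in WT and 1.92 in Nr4a-TKO), Prmt5, the arginine methyltransferase of Sm proteins (1.83 and 1.52), Clns1a, the Sm chaperone (1.57 and 1.30), Strap (1.74 and 1.71), Gemin4 (1.87 and 1.5), Gemin5 (1.17 and 1.92), Gemin6 (1.31 and 1.28) and Smn1 (1.30 and 1.87). In the same list Tgs1, which caps snRNAs, was at 1.35 in WT and -0.86 in Nr4a-TKO, and it was 2.17 higher in Nr4a-TKO than in WT naive T. It is 1 of 4 of the 159 genes more than 2-fold apart in naive T, with Srpk1 (1.03), Mbnl2 (1.17) and Gemin8 (at least 1.38), all higher in Nr4a-TKO, and 0 were at 3 h. Over all features, 5.32% were that far apart in naive T and 5.38% at 3 h. The 4 genes were named after their values were seen. Genes of the exon junction complex and mRNA export followed with 8 of 19, namely Magohb (2.08 and 1.95), Magoh (1.73 and 1.5), Thoc1 (1.80 and 1.57), Rbm8a (1.44 and 1.36), Ddx39 (1.49 and 1.56), Rnps1 (1.34 and 1.29), Ncbp2 (1.45 and 1.12) and Alyref (1.20 and 1.23).

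Among genes of the tri-snRNP and other snRNP proteins, 6 of 24 rose: Snrnp35 of the minor spliceosome (2.02 and 1.81), Prpf31 (1.58 and 1.67), Eftud2 (1.52 and 1.29), Nhp2l1 (1.5 and 1.5), Snrnp40 (1.11 and 1.03) and Prpf3 (1.09 and 1.09). U2AF and branch point genes gave 2 of 20, U2af1 (1.41 and 1.14), which reads the 3′ splice site, and Rbm17 (1.17 and 1.31). LSm genes gave 2 of 10, Lsm2 (1.65 and 1.28) and Lsm7 (1.26 and 1.26). Step helicases and the Prp19 complex gave 2 of 22, Isy1 (1.62 and 1.32) and Cwc22 (1.18 and 1.13).

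Regulators outside the core machinery went both ways. In the list of 11 genes that act with SR proteins, made of kinases, the importer Tnpo3 and the Tra2 genes, Tra2a rose (1.02 and 1.01) and Clk1, a kinase of SR proteins, fell by 1.03 in each genotype, with a median mean change of -0.06 over the list. Srpk1, another SR protein kinase, was at -0.26 in WT and fell in Nr4a-TKO, where its change was -1.5. Of 37 other regulators, Syncrip (1.73 and 1.48), Rbm3 (1.29 and 1.20), Fubp1 (1.42 and 1.48) and Tardbp (1.1 and 1.22) rose, while Celf2 fell by 1.99 in WT and by 1.67 in Nr4a-TKO, as Mbnl2 fell by 1.85 and 2.59.

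**Figure D5:**
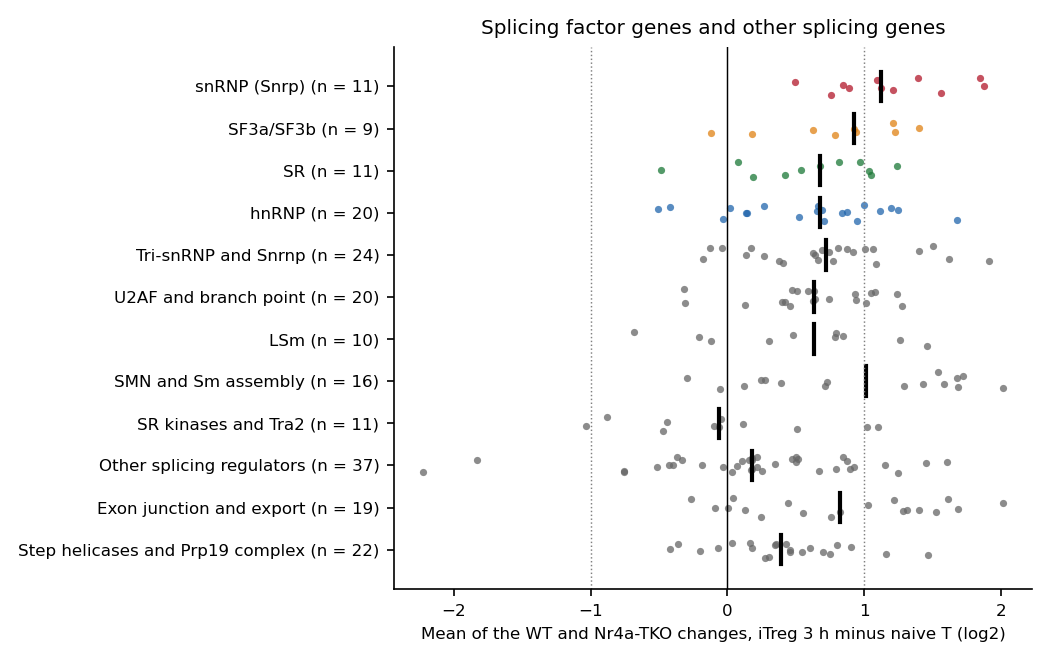
Mean of the WT and Nr4a-TKO changes between naive T and 3 h of iTreg culture (horizontal axis, log2) for each gene of the 4 member classes (coloured) and of 8 lists of other splicing genes (grey), with the number of genes measured in both genotypes, a black bar at the median and dotted lines at 2-fold. The points are spread vertically for sight only; the medians run from 1.12 for Snrp genes to -0.06 for SR kinases and Tra2.

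Promoters were examined because the members went up together and because Myc, whose protein binds the E-box CACGTG with Max, rose by 2.51 in WT and, in Nr4a-TKO, by 2.04. The motif CACGTG, which reads the same on both strands, was sought in the 250 bases before the start site of RefSeq genes on GRCm38.p6. It was present in 4 of the 46 members with an entry, which is 8.70%, against 6.86% of all 27025 genes of the table and 8.80% of the features well above background on the 4 arrays. The members that hold it are Snrpa, Hnrnpd, Hnrnpa3 and Hnrnpf, with mean changes of 1.56, 1.19, 0.71 and 0.27. The share is close to that of other detected genes, and a match is a description of letters, not a bound site. The promoters of the 2 that rose are shown with the motif in capitals, 5′ to 3′ on the minus strand.
Snrpa (chr7:27196272-27196521): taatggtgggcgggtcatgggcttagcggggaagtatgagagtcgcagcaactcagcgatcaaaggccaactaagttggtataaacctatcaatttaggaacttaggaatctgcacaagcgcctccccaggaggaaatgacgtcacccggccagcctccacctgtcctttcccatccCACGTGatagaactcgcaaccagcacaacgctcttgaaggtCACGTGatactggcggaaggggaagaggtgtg
Hnrnpd (chr5:99978939-99979188): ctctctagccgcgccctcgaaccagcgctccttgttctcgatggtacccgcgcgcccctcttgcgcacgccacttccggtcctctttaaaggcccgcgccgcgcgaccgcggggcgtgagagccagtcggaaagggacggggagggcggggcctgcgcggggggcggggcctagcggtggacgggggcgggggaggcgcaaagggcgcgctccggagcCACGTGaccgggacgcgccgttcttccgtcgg
The Snrpa window belongs to 1 of its 2 start sites in the table and holds the motif 2 times, 73 and 32 bases before the start, and Hnrnpd holds it once, 32 bases before.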

How the data were processed

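The 4 arrays were 8x60K SurePrint G3 Mouse GE arrays hybridised with Cy3-labelled cRNA from 100 ng of total RNA and read in 1 scan of 1 slide. The authors deposited the output of Agilent Feature Extraction 11.5.1.1 for each array, with a processed intensity per spot that is background-subtracted and detrended, flags, and probe coordinates on mm9. The log2 value table that they deposited beside it does not hold RMA values, which the methods describe: 99% of its 56305 single-spot probes lie within 0.005 of the log2 processed intensity after subtraction of the array's 75th percentile.

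The values reported were computed from the processed intensity in that way, after control spots and 115 to 160 outlier spots per array were left out, and repeated spots were averaged. Each gene is represented by its brightest probe, by the mean of the arrays. A difference needed 1 of 2 arrays well above background, and a dim value was raised to the lowest signal well above background on its array, which makes a bound. The threshold was 2-fold. The alternatives were limma 3.58.1 (R 4.3.3) normexp with an offset of 0 and quantile normalization, an offset of 50, the deposited table, the mean over probes, other filters, median centring and 1.5-fold. Scripts ran in Python 3.11.15 (numpy 2.4.6, pandas 2.3.3, matplotlib 3.10.9), and the counting was tested on simulated data.

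Members and lists were chosen with earlier results of these data known. Named are members past 2-fold in both genotypes or in 1, the 3 highest and 3 lowest of each class, members whose probes disagree, and other splicing genes past 2-fold in both genotypes. Values of the remaining members are given so that all are accounted for. Protein sequences were not analysed here.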

Additional observations from a re-analysis of the deposited data

Results flagged for a closer look

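The following changes from naive T to iTreg at 3 h had opposite signs in WT and in Nr4a-TKO, each beyond 2 SDs of repeated spots of the processed signal (0.13 in WT and 0.12 in Nr4a-TKO), and the difference between the genotypes was not tested. All 4 probes of Hnrnpl, which regulates Ptprc exons in resting T cells, were above 0 in WT and below 0 in Nr4a-TKO, at 0.17 and -0.14 for the brightest and at 0.37 and -0.14, 0.55 and -0.32, and 0.30 and -0.17 for the others. These probes are read from the same 4 RNA samples, and by the spread before detrending (2 SDs of 0.34 and 0.35) no Hnrnpl probe passes in both genotypes. The dimmer Srsf10 probe, on another transcript than the first, was at -0.80 in WT and 0.52 in Nr4a-TKO, while the brighter was above 0 in both. A Sf3b1 probe was at -0.48 in WT and 0.29 in Nr4a-TKO, a pair that does not pass by that wider spread either, whereas the brightest Sf3b1 probe was at -0.15 and -0.08. Among the other splicing genes with a change past 2-fold in 1 genotype, Tgs1 was at 1.35 in WT and -0.86 in Nr4a-TKO.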

How the results depend on the processing

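No member was lower by more than 2-fold at 3 h in either genotype under any alternative. Normexp with quantile normalization, the steps of RMA, gave 10 members higher in WT in place of 17 and 11 in Nr4a-TKO in place of 20, and the cause was not tested. A threshold of 1.5-fold gave 34 and 35, where 18.6% and 17.8% of all features were higher. It gave 1 member apart between the genotypes at each stage (Snrpe) in place of 0. The other alternatives gave 14 to 18 in WT and 15 to 21 in Nr4a-TKO, and the median changes ran from 0.67 to 0.85 in WT and from 0.69 to 0.88 in Nr4a-TKO. Of the 37 changes of single members past 2-fold, 16 were no longer past it with normexp and quantile normalization, 12 with the mean over probes and 7 with an offset of 50, and none reversed. The limit to features above the 75th percentile was added after the data were seen. No paired analysis was possible because each group has 1 array and the labels carry no replicate numbers. Slide and scan are the same for the 4 arrays. Leaving out an array leaves no comparison. Only Snrpn was limited by its signal over background.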
